A study of Mus musculus and Homo sapiens with 56 samples.

Results

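The regions described here were the intronic m6A peaks of wild-type mouse embryonic stem cells. Each is a region of the deposited wild-type (WT) peak list whose summit lay inside the span of a gene but in no exon of any gene in the deposited count table. By this rule 14473 of 48445 WT peaks were intronic, 29.9% of the list (95% exact binomial interval 29.5 to 30.3), beside 17125 peaks with the summit in an exon and 16847 outside all gene spans. Such intervals cover counting error only, and peaks of 1 list are not replicates of a condition.

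The cells were E14TG2a, a mouse embryonic stem cell line grown in LIF together with MEK and GSK3β inhibitors, a medium that holds the cells in a naive pluripotent state. They were either WT or carried D395A, an alanine substitution in the catalytic centre of METTL3, and the labels do not say whether the D395A line is 1 clone. The WT list stands for 2 immunoprecipitated and 2 input samples of m6A RNA immunoprecipitation, in which an antibody against m6A pulls down fragments of chromatin RNA, and the D395A list for 1 of each. Of the 56 samples of the series, 10 were used: these 6 and the RNA-seq libraries of untreated WT and D395A cells (2 each), sequenced after removal of ribosomal RNA. Nothing in the labels says that the 2 libraries of a genotype came from separate cultures, so the p-values below measure only the spread between these libraries.

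N6-methyladenosine (m6A) is written on nascent RNA by a complex of METTL3 and METTL14 with adaptor proteins such as WTAP, VIRMA and ZC3H13, mostly where the RNA reads GGAC or a close variant. In messenger RNA the mark is best known around stop codons and in long internal exons. Introns are removed before export, so m6A within them is seen mainly in RNA that is still nuclear or bound to chromatin. YTHDC1 is the nuclear reader of the mark, YTHDF proteins read it in the cytoplasm, and FTO and ALKBH5 remove it.

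No genome was at hand to read the sequence under each summit. Sequences from RefSeq (GRCm38.p6, the same coordinates as mm10) showed what some intronic peaks cover, and GGAC is in capitals wherever it occurs. Of 1005 RefSeq miRNA hairpins, 7 lay wholly inside an intronic peak. The first 2 printed here end at or next to the exon that follows, so they show the last bases of introns where peaks were densest. Mir7042 in Tatdn2 (chr6:113707208-113707265, + strand) ended with the letters ag and 0 bases before the exon, and Mir1963 in Ryr1 (chr7:29083636-29083694, - strand) left 1 base.
Mir7042: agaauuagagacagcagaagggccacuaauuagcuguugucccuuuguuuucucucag
Mir1963: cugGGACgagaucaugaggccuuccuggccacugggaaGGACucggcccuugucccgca

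These peaks had summits 141 and 69 bases before the next exon of Tatdn2 and Ryr1, with folds of 3.90 and 5.10 over input. The other 2 hairpins shown hold GGAC once each. Mir3093 (chr3:88215171-88215257, + strand) lay in an intron of Gm3764 under a peak of 13.0-fold, 5698 bases from the next exon. Mir5125 (chr17:23823291-23823369, + strand) lay in Srrm2, which encodes a scaffold protein of nuclear speckles, under a peak of 2.50-fold that a D395A peak overlapped.
Mir3093: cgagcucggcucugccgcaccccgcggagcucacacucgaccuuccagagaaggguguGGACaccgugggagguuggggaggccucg
Mir5125: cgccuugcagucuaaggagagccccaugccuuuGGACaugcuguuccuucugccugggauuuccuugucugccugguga

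The letters GGAC were found in 3 of the 7 hairpins (42.9%) and in 246 of all 1005 (24.5%), reading the hairpin's strand only. RefSeq start windows, which run from 250 bases before to 50 bases after a gene's start, held 58 intronic summits (0.401%). In 28 of these 58 the window belonged to the host gene itself, so the intron was one of a longer model in the count table. Of those with the host's own window, 3 of the strongest follow, printed on the gene's strand with GGAC and its reverse complement GTCC in capitals: Mrpl36, a mitochondrial ribosomal protein (chr13:73330759-73331058, + strand), Rbbp6, a ubiquitin ligase that binds RB1 (chr7:122970314-122970613, + strand), and Sp2, a zinc finger transcription factor (chr11:96977639-96977938, - strand).
Mrpl36: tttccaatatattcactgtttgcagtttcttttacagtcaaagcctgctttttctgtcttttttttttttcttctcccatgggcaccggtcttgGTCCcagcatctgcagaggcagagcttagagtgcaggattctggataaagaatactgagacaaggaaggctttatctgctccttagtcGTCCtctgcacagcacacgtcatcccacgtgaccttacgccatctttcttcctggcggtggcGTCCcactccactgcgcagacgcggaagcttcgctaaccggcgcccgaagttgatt
Rbbp6: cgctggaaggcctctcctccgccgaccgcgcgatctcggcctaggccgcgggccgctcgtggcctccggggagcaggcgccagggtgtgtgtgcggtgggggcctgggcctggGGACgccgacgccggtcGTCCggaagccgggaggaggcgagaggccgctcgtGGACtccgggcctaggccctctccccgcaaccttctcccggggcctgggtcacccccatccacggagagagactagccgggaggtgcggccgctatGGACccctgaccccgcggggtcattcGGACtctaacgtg
Sp2: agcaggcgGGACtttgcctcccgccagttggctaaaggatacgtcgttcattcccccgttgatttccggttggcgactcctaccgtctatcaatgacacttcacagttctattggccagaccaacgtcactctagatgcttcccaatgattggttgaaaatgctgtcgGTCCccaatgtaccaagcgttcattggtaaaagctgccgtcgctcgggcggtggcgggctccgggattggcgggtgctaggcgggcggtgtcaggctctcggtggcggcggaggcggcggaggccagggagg

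Their peaks had folds of 13.2 in Mrpl36, 9.89 in Rbbp6 and 9.47 in Sp2, and only the peak in Rbbp6 was overlapped by a D395A peak. The Mrpl36 window held GGAC 0 times and GTCC 3 times, the Rbbp6 window 4 times and 1 time, and the Sp2 window once each. Either motif stood in 59 of 64 start windows under an intronic summit (92.2%) and in 28798 of all 32851 windows (87.7%), so these short motifs did not set the windows apart from other start windows.

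The host of a peak was taken where a single gene covered the summit, which held for 13547 peaks in 5881 genes. The other 926 summits lay in 2 or more overlapping genes, 851 of them in 2. Of the host genes, 3103 (52.8%) had 1 intronic peak, 623 had 5 or more and 136 had 10 or more, and these 136 held 1894 peaks (14.0%). Of the hosts, 5009 were protein-coding genes and 323 long non-coding RNA genes in RefSeq. Hosts were long, with a median span of 51.5 kb against 16.7 kb over the 17778 genes tested in RNA-seq and 10.7 kb over tested genes that hosted none. In 3615 hosts (61.5%) an exon also held the summit of a WT peak.

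The span of a gene is that of its row in the count table, and some rows join exons that lie far apart. Of the 13547 peaks, 11952 (88.2%) lay inside the RefSeq span of the same symbol, 613 outside it, and 982 had a host with no RefSeq entry. The row with the most intronic peaks, Chd1, a chromatin remodeller that reads H3K4 methylation, was the plainest case. It spanned 1690 kb, against 67.6 kb in RefSeq, and 1 of its 59 peaks lay inside the RefSeq span. Its strongest peak (25.0-fold) lay in a gap between exons of 1601721 bases.

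Outside Chd1, the hosts with the most peaks were genes of long introns. Gucy1a2, a subunit of the nitric oxide receptor guanylate cyclase, held 29 peaks over 362 kb, with folds from 3.77 to 20.9 and a median of 8.21. Cntnap2, a neurexin-like adhesion protein, held 28 over 2245 kb (median 6.66). The unnamed locus Gm26573 held 29 with a median of 6.62, and A830018L16Rik 27 with a median of 8.76. Pkhd1, the fibrocystin gene, held 24, Wdpcp, a planar cell polarity gene, 23, Gphn, the gephyrin scaffold, 22, Nalcn, a sodium leak channel, 20, and Eda, the ligand ectodysplasin, 19. Of these 9 hosts, Gphn had the highest median fold (10.8) and Wdpcp the lowest (4.91). Almost none of their peaks touched an exon: the count was 0 or 1 in each gene except Gm26573, which had 2.

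Summits were not spread evenly along introns. They were densest just before the next exon: 1977 of 13547 (14.6%) lay within 100 bases before it, in 1451 genes, and 500 (3.69%) within 100 bases after the exon before. In introns of at least 2000 bases, where the ends lie far apart, the counts were 893 and 115, set against means of 74.2 and 78.2 per 100 bases between 500 and 1000 bases from the same ends. The pattern was the same on both strands, with 976 against 248 for hosts on the + strand and 1001 against 252 for hosts on the - strand.

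**Figure D1:**
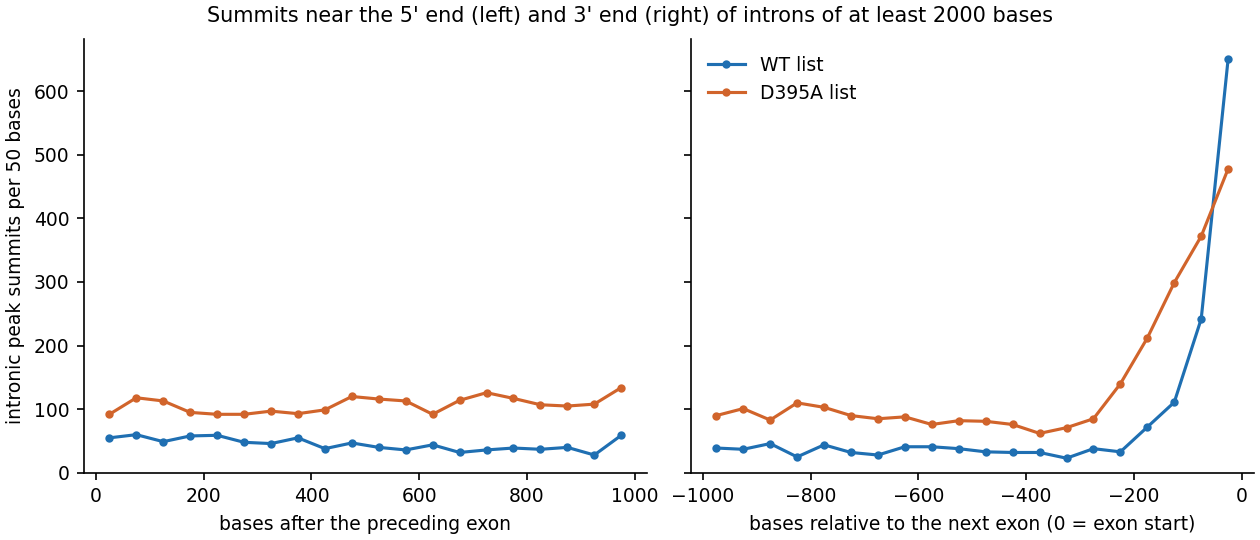
Number of intronic peak summits (vertical axis, per 50 bases) against the distance in bases from the exon before the intron (left) and from the next exon (right), for introns of at least 2000 bases of hosts with a single covering gene. The WT list (blue) rises from 33 at 200 to 250 bases before the next exon to 651 in the last 50 bases and stays between 28 and 60 after the exon before; the D395A list (orange) rises to 478.

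Of the 1977 peaks before an exon, 99.5% reached into an exon, 8.24% lay in the last intron and their median fold was 4.93. Where the exon that followed was internal, its median length was 175 bases, against 138 over the 77670 internal exons of the host genes, and 9.37% of those exons were over 400 bases against 11.2%. Within internal exons of at least 400 bases, 411 of the 4514 exonic summits lay in the first 100 bases and 103 in the last 100. Density further inside these exons was not taken, so these counts do not show whether summits gather at exon starts. The D395A list also had more intronic summits before an exon than after one, 1990 and 547 of 24774. What places summits on the upstream side of an exon, in the RNA or in the peak calling, was not tested.

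Of 64 named hosts, 9 had their strongest intronic summit within 100 bases before the next exon: Ythdf2, Zc3h13, Ythdc1, Pcif1, Tet2, Pcgf5, Ehmt1, Grb10 and Spic. In Ythdf2, a cytoplasmic reader that promotes decay of m6A-marked RNA, the only intronic summit lay 1 base before the last exon (chr4:132186640-132187213, 9.57-fold). In Zc3h13, an adaptor that keeps the writer complex in the nucleus, the strongest of 5 intronic summits lay 1 base before the next exon (chr14:75324212-75324568, 6.82-fold), and all 5 peaks touched an exon. The only intronic summit of Ythdc1 lay 10 bases before the last exon (4.06-fold), and that of Tet2, a 5-methylcytosine oxidase, 5 bases before the next exon (3.28-fold). By contrast, the strongest intronic peak of Virma, the largest subunit of the writer complex, lay 465 bases into its first intron, and that of Igf2bp3, an m6A-binding protein, 741 bases before the next exon.

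By whether the peak reached an exon, the intronic peaks fell into groups with different hosts. Of the 13547, 3675 touched an exon and 9872 did not. Those that touched one had a median fold of 5.23, a median intron of 1685 bases and hosts with a median of 43.7 CPM in WT (CPM are counts scaled to the size of the library). Those that touched none had a median fold of 6.01, a median intron of 21800 bases and hosts with a median of 8.46 CPM. Over all 14473, the median fold was 5.76 and the median width 518 bases, against 6.40 and 760 bases for peaks with the summit in an exon. Peaks in last exons had 6.98 and peaks in internal exons 5.80, close to the intronic value.

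By intron order, peaks followed the bases available. First introns held 2445 of 13547 peaks (18.05%, interval 17.4 to 18.7) and 17.8% of the intron bases of the same hosts. Introns 2 to 5 and those from 6 on each held a share of peaks within 1 percentage point of their share of bases. The last intron differed, with 11.8% of the peaks (11.2 to 12.3) on 7.18% of the bases. Inside RefSeq spans alone, first introns held 15.4% of peaks on 15.9% of bases and last introns 9.25% on 5.57%. In long introns of at least 20000 bases, the 5177 peaks that touched no exon were counted in 5 stretches of equal length: 17.3% lay in the first, 22.7% in the middle one and 16.2% in the last.

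**Figure D2:**
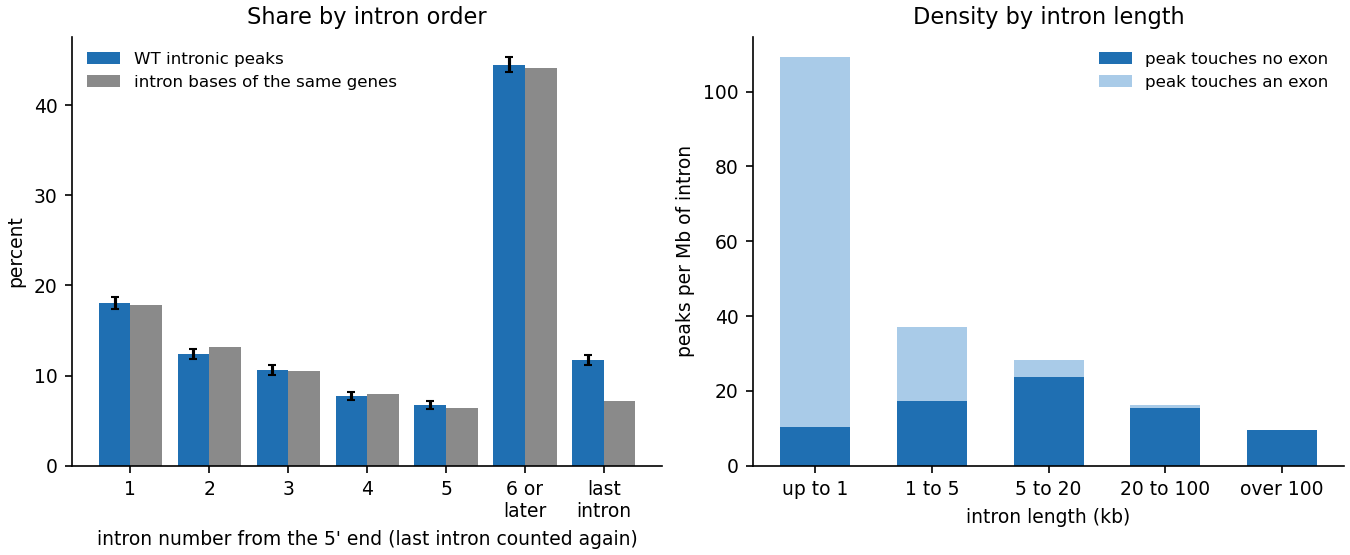
Left: percent of WT intronic peaks (blue, bars of 95% exact binomial intervals) and of intron bases of the same genes (grey) by intron number; the last intron, counted again, holds 11.8% of peaks on 7.18% of bases. Right: peaks per Mb of intron of host genes by intron length in kb, split by whether the peak touches an exon. Peaks that touch none are densest in introns of 5 to 20 kb (23.8 per Mb).

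Intron length had a clear gradient. Among introns of host genes, peak density was 109 per Mb in those of up to 1000 bases, 28.2 in those of 5000 to 20000 and 9.62 in those over 100000. Genes without a peak gave no introns here, which raises these densities and the shares of introns below. Peaks that touched no exon had densities of 10.3, 23.8 and 9.45 per Mb in the same classes. An intronic peak was at least 277 bases wide, so in short introns few peaks can miss both exons, and this split is set in part by intron length itself. A peak was found in 1395 of 29692 host introns of up to 1000 bases (4.70%) and in 549 of 881 host introns over 100000 bases (62.3%).

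Intronic peaks were found across the whole range of host RNA levels, and were strongest where the host was nearly silent. The median fold was 7.01 in hosts with 0 counts in WT and 4.60 in hosts over 100 CPM. Hosts at 1 CPM or less held 1171 and 2117 peaks (8.64% and 15.6%, without and with WT counts). Of the 308 intronic peaks above 20-fold, 291 had a single host, and 45.7% of these had a host below 1 CPM, against 16.2% of peaks of up to 5-fold. Per length of exons, tested hosts had medians of 6.17 and 6.25 CPM per kb in the WT libraries, against 4.63 and 4.63 over all tested genes.

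The deposited folds of many peaks took values in equal steps of 0.350. The caller named in the processing notes, MACS2, uses the larger of a local and a genome-wide control level, as background. Of the intronic folds, 27.3% were whole multiples of the step (within 0.002 of a step), and the share was 65.6% in hosts with 0 WT counts and 3.62% in hosts over 100 CPM. The part of this in the fall of fold with RNA level was not tested.

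**Figure D3:**
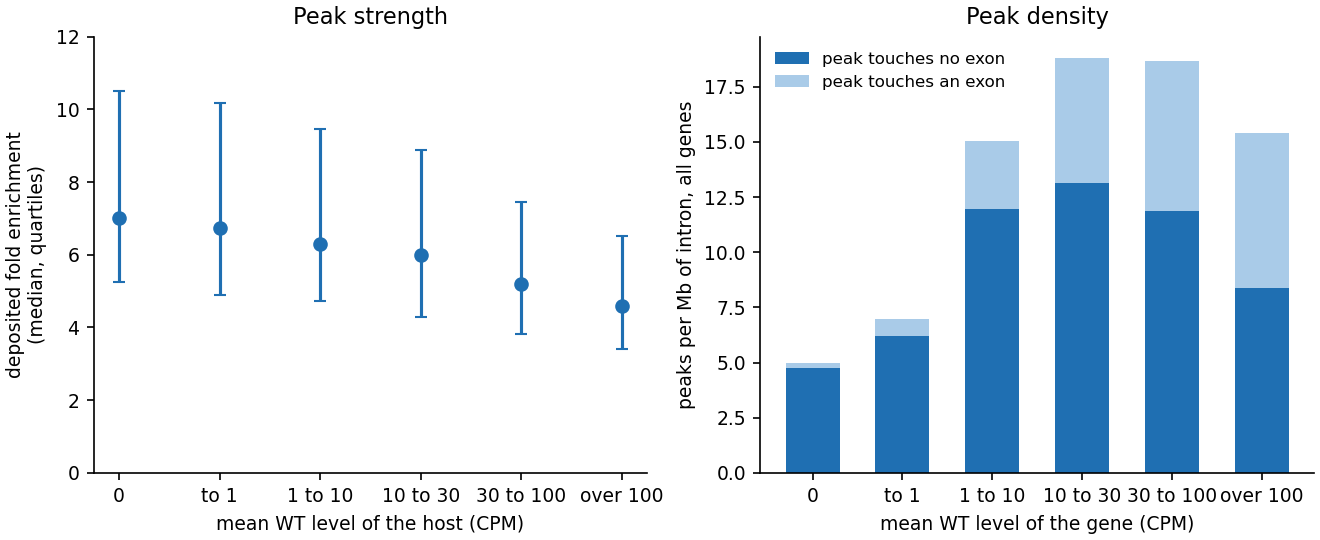
Left: deposited fold enrichment of intronic peaks (median and quartiles) by the mean WT level of the host in CPM, from 7.01 at 0 CPM to 4.60 above 100 CPM. Right: intronic peaks per Mb of intron over all genes of that level, split by whether the peak touches an exon; the total is 4.997 at 0 CPM and 18.8 at 10 to 30 CPM.

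The strongest intronic peak of all lay in 1810024B03Rik (chr2:127188918-127190042, 46.6-fold), in the last intron, 2157 bases before the final exon. That host had 3.14 and 3.81 CPM in WT and 2.59 and 2.13 CPM in D395A. Next came Ankrd31, a meiotic recombination factor (40.2-fold, 2.47 and 2.63 CPM in WT), and Celrr, a long non-coding RNA (38.2-fold, 0.52 and 0.38 CPM). The peak in Gm11906 was 38.1-fold, and that host had 0 counts in both WT libraries and 50 and 43 counts in D395A. With 3 counts over both WT libraries as the floor, its RNA was at least 32.5-fold higher in D395A, but 30% of its exonic bases are shared with a gene on the other strand.

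The other 6 of the top 10 followed the same course. One peak, at 36.8-fold, was covered by both Ccdc106 and Gm15510, and the others lay in Gm45704 (36.1-fold), Gpc5, a glypican (36.0-fold), Cadm2, a synaptic adhesion molecule (35.7-fold), Fgf12, a fibroblast growth factor homologue (35.6-fold), and Rbms3, an RNA-binding protein (35.4-fold). Ccdc106 had 3.36 and 2.15 CPM in WT, and the mean WT level of the others ran from 0.0268 CPM (Fgf12) to 0.257 CPM (Cadm2). Of the 10 peaks, 1 was overlapped by a D395A peak (in Gm45704), near the 9.80% over all intronic peaks. That D395A peak was 2.72-fold and did not have q below 0.05. Exon counts of a host say nothing of other RNA made within its introns.

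The RNA of the host genes was then compared between D395A and WT. Libraries held 13953069 and 19246342 counts in WT and 12743677 and 18151353 in D395A. Of 8 embryonic stem cell markers, 0 rose and 7 fell. Their summed level was 5777 to 5889 CPM in WT and 2676 to 2678 CPM in D395A. Fibroblast markers summed to 28.5 to 28.6 CPM in WT, with Dcn at 0, and to 15.9 to 16.1 in D395A. Of 6 of them tested, 1 was higher and 3 lower. Endoderm markers summed to 10.5 to 11.4 CPM in WT, with Afp at 0, and to 32.0 to 33.4 in D395A. Of 4 of them tested, 1 was higher and 1 lower, so the sum does not speak for the list. Trophectoderm markers summed to 78.7 CPM in WT and 98.9 to 104 CPM in D395A, and of 5 tested 4 were higher and 0 lower. The part of these cell types in the results below was not tested. Mettl3 itself had 36.2 and 35.5 CPM in WT and 30.6 and 33.9 in D395A (log2 difference -0.15, adjusted p = 0.114), which does not check a substitution.

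Of 4800 host genes tested, 1840 (38.3%) were higher and 1780 (37.1%) lower in D395A by edgeR's quasi-likelihood test with Benjamini-Hochberg adjustment. Over all 17778 genes tested, 36.8% were higher and 34.3% lower, 71.1% in either direction. The host shares were thus close to the background, and the median log2 difference was 0.01 in hosts and 0.00 over all genes. Hosts of 10 or more peaks gave 46 higher and 40 lower of 113 tested. In bulk libraries, a change in the share of cells and a change in RNA per cell cannot be told apart.

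Some genes overlap exons of a gene on the other strand, and counting without strand cannot tell such a pair apart. With these left aside, 37.8% of 3341 hosts were higher and 37.6% lower, beside 32.3% and 37.1% of all 12377 such genes and 30.3% and 36.9% of those that hosted no peak. The gap in genes higher in D395A moved with length and level. Among genes of 1 to 10 CPM that span under 50 kb, 33.7% of 424 hosts and 21.3% of 2828 other genes were higher, whereas among genes of the same level that span 50 kb or more the shares were 48.7% of 349 and 52.0% of 250. At up to 1 CPM, 74.5% of 137 long hosts and 76.3% of 169 other long genes were higher, and genes of this level pass the count filter mainly through D395A counts. Among shorter genes of that level, 53.3% of 92 hosts and 49.0% of 1264 others were higher. At 10 to 100 CPM the shares higher were 40.9% of 767 long hosts and 35.6% of 388 other long genes. Among shorter genes they were 37.4% of 877 and 32.3% of 2786. Over 100 CPM more genes were lower than higher in hosts and others alike: 54.5% of 429 long hosts and 63.0% of 297 other long genes were lower. The shares higher there were 23.8% and 15.5%, and 21.1% of 266 and 16.2% of 1054 in shorter genes. Hosts thus had the higher share except among long genes of up to 10 CPM.

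Among hosts with many peaks, Gucy1a2 had 6.13 and 7.78 CPM in WT and 20.2 and 20.04 CPM in D395A, a log2 difference of 1.51 (SE 0.13, adjusted p = 9.71e-08). Cntnap2 had 8.74 and 8.91 CPM in WT and 18.9 and 18.8 in D395A (log2 1.10, adjusted p = 7.31e-07), and Eda 8.07 and 8.85 CPM against 18.2 and 22.5. In these 3 hosts both D395A libraries lay above both WT libraries. A830018L16Rik, with 15.9 and 14.9 CPM in WT and 14.7 and 14.8 in D395A, did not pass the test, nor did Wdpcp, Gphn or Nalcn, and Gm26573 was not tested. Pkhd1, at 1.57 and 1.34 CPM in WT and 0.84 and 0.74 in D395A, passed with an adjusted p of 0.0450, and lost the call when any single library was left out.

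**Figure D4:**
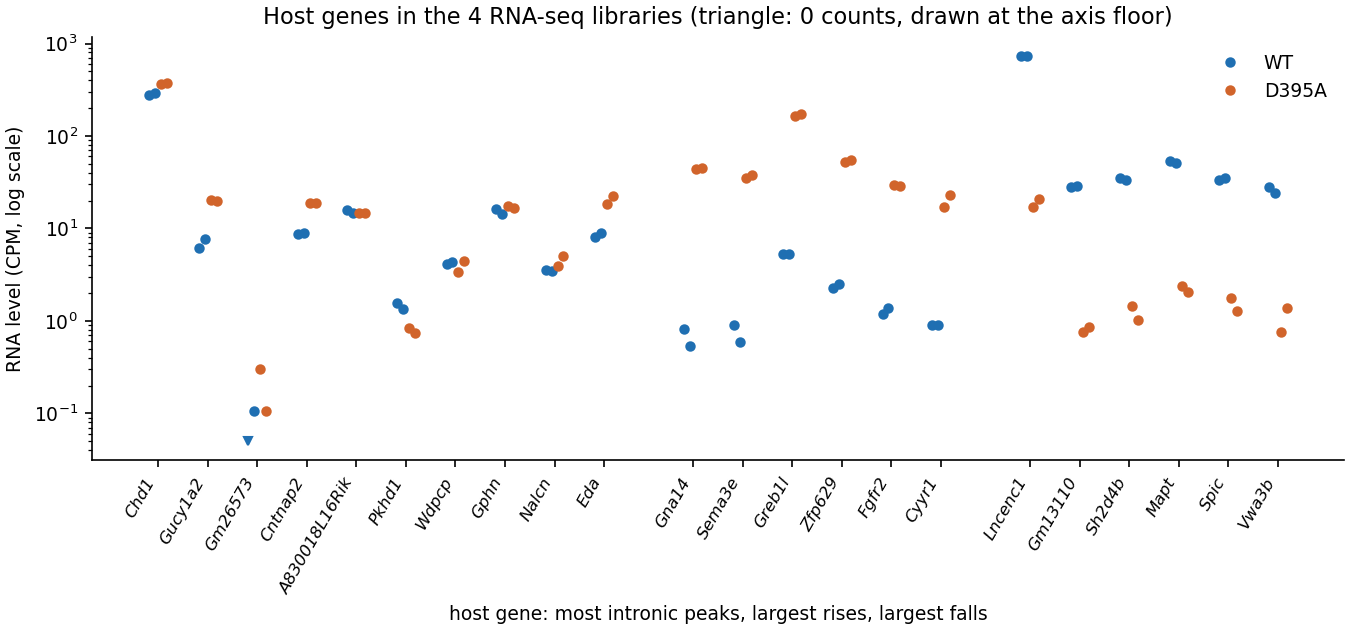
RNA level in CPM (log scale) of named host genes in each of the 4 RNA-seq libraries, WT in blue and D395A in orange. On the left stand the 10 hosts with the most intronic peaks. The 6 with the largest rise and the 6 with the largest fall follow. These last 12 were chosen among hosts whose genotypes do not overlap, so their separation is not a result.

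The largest rises were read among hosts of at least 10 CPM on average that share no exon with the other strand. Only hosts that passed the test and had no overlap between the genotypes were ranked. Gna14, a G protein alpha subunit, had 0.82 and 0.54 CPM in WT and 43.4 and 44.5 in D395A (log2 6.05, SE 0.16), and held 2 intronic peaks with a maximum fold of 4.58. Sema3e, an axon guidance ligand, had 0.90 and 0.59 CPM in WT and 35.5 and 38.0 in D395A, with 3 peaks of 11.2 to 15.9-fold. Greb1l, a regulator of kidney and ear development, had 5.23 and 5.26 CPM in WT and 163 and 171 in D395A, with 6 peaks. Zfp629, Fgfr2 and Cyyr1 completed the 6, with log2 differences of 4.47, 4.47 and 4.47. The Fgfr2 row spans 2961 kb against 104 kb in RefSeq, and 0 of its 6 single-host peaks lay inside the RefSeq span.

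The largest falls were read in the same way. Lncenc1, a non-coding RNA abundant in the naive state, had 733 and 727 CPM in WT and 17.2 and 21.1 in D395A (log2 -5.24, SE 0.10), with 5 intronic peaks, of which 0 touched an exon and 0 were overlapped by a D395A peak. Mapt, the microtubule protein tau, had 54.0 and 51.0 CPM in WT and 2.36 and 2.07 in D395A (log2 -4.57), with 9 peaks, and Sh2d4b had 35.1 and 33.6 against 1.45 and 1.01 CPM, with 6. Gm13110 (log2 -5.12), Spic, an ETS factor (log2 -4.53), and Vwa3b (log2 -4.53) held 4, 1 and 5 peaks. In each of these 6 hosts 0 intronic peaks were overlapped by a D395A peak, as in 4798 of all 5881 hosts (81.6%).

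Gene lists were read next, each beside the background shares above. Here a gene counts as hosting a peak that it covers alone or together with other genes. By that rule 5261 of all 17778 tested genes hosted a peak. The lists were not matched to those genes in length or RNA level. Of 12 m6A writers and regulators, 4 hosted 13 intronic peaks (median fold 4.53); 0 were overlapped by a D395A peak, against 9.80% of all intronic peaks. Of these hosts, Virma, with 131 and 138 CPM in WT and 212 and 222 in D395A, rose, Pcif1, the cap-adjacent methyltransferase, and Wtap rose, and Zc3h13 fell (log2 -0.24). The call of Wtap was lost without WT replicate 1 (adjusted p by edgeR 0.116) and without WT replicate 2 (0.218). Over the 12, 4 rose and 3 fell. Of 12 readers and erasers, 5 hosted 15 peaks. Ythdf2 rose from 164 and 169 to 331 and 347 CPM (log2 1.03, adjusted p = 3.33e-09), and Ythdc1 rose by a log2 difference of 0.51, while Igf2bp3 and Fto did not pass. Over these 12, 6 rose and 2 fell.

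Among 11 H3K9 demethylases, 8 hosted 15 peaks, 2 hosts rose and 5 fell, and over the list 4 rose and 6 fell. Kdm3b, which removes H3K9me2, had 424 and 426 CPM in WT and 276 and 291 in D395A (log2 -0.58), with 24.6% of its exonic bases shared with a gene on the other strand, and Kdm7a had 34.1 and 38.5 against 72.7 and 80.1 CPM (log2 1.07). Among 15 H3K9 methyltransferase genes and partners, 10 hosted 25 peaks, and 7 of the 15 rose and 5 fell. The 10 hosts gave 4 higher and 5 lower. Mecom, a PR-domain factor, had 1.94 and 1.82 CPM in WT and 12.3 and 12.1 in D395A, with a strongest peak of 22.5-fold. Ehmt1, the partner of G9a, had 114 and 115 CPM against 171 and 191 (log2 0.67), and its strongest peak (10.1-fold) lay 82 bases before the next exon.

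Hosts among naive pluripotency genes fell without exception: 6 of the 25 hosted 13 peaks, and all 6 were lower, Esrrb, Nr5a2, Zfp42, Lncenc1, Tet1 and Tet2. Over the 25, 19 were lower and 3 higher, so non-hosts of the list (13 of 19 lower) went the same way. Tet2 had 828 and 828 CPM in WT and 114 and 126 in D395A (log2 -2.79), and Esrrb, an orphan nuclear receptor, 1006 and 926 against 526 and 555 CPM. Among 13 DNA methylation genes, 5 hosted 9 peaks, with 5 of the 13 higher and 5 lower. The 5 hosts gave 1 higher and 4 lower, and the 8 others 4 higher and 1 lower. Tet1 and Tet2 stand in both lists. Of 18 Polycomb genes 9 hosted 12 peaks, of which 4 were overlapped by D395A peaks. Cbx7, a reader subunit, had 174 and 169 CPM in WT and 32.0 and 32.6 in D395A, and both of its intronic peaks were overlapped. The D395A peak over the stronger of these was 2.46-fold and did not have q below 0.05. Over the Polycomb list 7 rose and 10 fell.

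Of 20 splicing factors, 6 hosted 11 peaks, with 3 of the 20 higher and 13 lower. The 6 hosts gave 2 higher and 3 lower. Srsf9 had 63.9 and 64.1 CPM in WT and 87.2 and 86.2 in D395A, and Rbfox2 247 and 234 against 180 and 190. Of 15 nuclear non-coding RNAs, 4 hosted 12 peaks, 11 of them with a single covering gene, and of 14 tested 6 rose and 6 fell. Airn, the non-coding RNA over Igf2r, had 0.07 and 0.11 CPM in WT and 1.67 and 1.65 in D395A (log2 4.04, SE 0.54), with a strongest peak of 13.0-fold. These levels stand for 1 and 2 counts in WT and 22 and 31 in D395A, so the size of the rise is loosely fixed. Of 20 imprinted genes, 4 hosted 4 peaks, with 11 of the 20 higher and 2 lower. The 4 hosts gave 1 higher, Sgce, and 1 lower, Grb10, which had 158 and 163 CPM in WT and 43.9 and 47.2 in D395A. The peak of Igf2r is also 1 of the peaks of Airn, so 3 of these genes had a peak of their own. Zim1, a zinc finger gene beside Peg3, held a peak of 22.7-fold at 0.45 and 0.64 CPM in WT, and Sgce, the epsilon sarcoglycan, rose from 7.70 and 10.0 to 69.2 and 68.0 CPM. Both of those peaks were overlapped in D395A, by peaks of 2.93 and 2.95-fold that did not have q below 0.05.

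Of 20 neuronal and adhesion genes, listed for their length, 18 hosted 213 peaks, with a median fold of 7.22, and 24 were overlapped. Per length their peaks were sparse: the 209 with a single covering gene came to 8.13 per Mb of intron, against 21.7 per Mb over all hosts. The 21.7 leaves out introns of genes without a peak. Over introns of all genes, intronic peaks came to 13.6 per Mb. Of 14 tested, 10 were higher and 3 lower. Among long genes of up to 1 CPM, 74.5% of hosts and 76.3% of others were higher. Such genes pass the count filter mainly through D395A counts (above). The part of length and level in the count for this list was not tested. Dmd, the dystrophin gene, held 17 peaks and had 156 and 160 CPM in WT against 111 and 119 in D395A (log2 -0.46). Macrod2 also held 17, at 3.44 and 2.79 CPM in WT and 6.62 and 4.73 in D395A. Fhit, at 0.22 and 0.86 CPM in WT and 2.28 and 1.75 in D395A, held 9, and its strongest (28.5-fold) lay in an intron of 551319 bases. Nrxn3, Ctnna3 and Pcdh15, also hosts, were at 0 in both WT libraries.

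Among the named hosts with a call, 8 lost it under another setting. Besides Pkhd1 these were Wtap, Atf7ip, Prdm16, Jmjd1c, Pcgf5, Mbnl2 and Fhit. With 1 library left out, the highest adjusted p by edgeR was 0.461 for Mbnl2 and 0.0526 for Fhit.

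The last comparison set the WT intronic peaks beside the D395A list. A D395A peak shared at least 1 base with 1418 of 14473 intronic peaks, 9.80% (9.32 to 10.3). The share was 12.4% for peaks in exons (16.8% in first, 14.4% in internal and 10.6% in last exons) and 8.09% for intergenic peaks. D395A peaks covered 1.06% of the intron bases of the WT hosts. This share of bases is not a background for the share of peaks. An intronic peak, with a median width of 518 bases, needs to share only 1. The lists were not called alike, since every WT peak had q below 0.05 whereas the D395A list was cut on p and 5275 of its 38823 peaks had such a q. Counting only those, the shared intronic peaks were 288 (1.99%, 1.77 to 2.23), and asking that at least 50% of the WT peak be covered left 594 (4.104%). At 50% the order against exons turned, with 3.75% for peaks in exons and 2.37% in last exons, while first exons (8.05%) and internal exons (4.78%) stayed above introns. Peaks in exons were also wider (above), and the part of width in this was not tested.

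**Figure D5:**
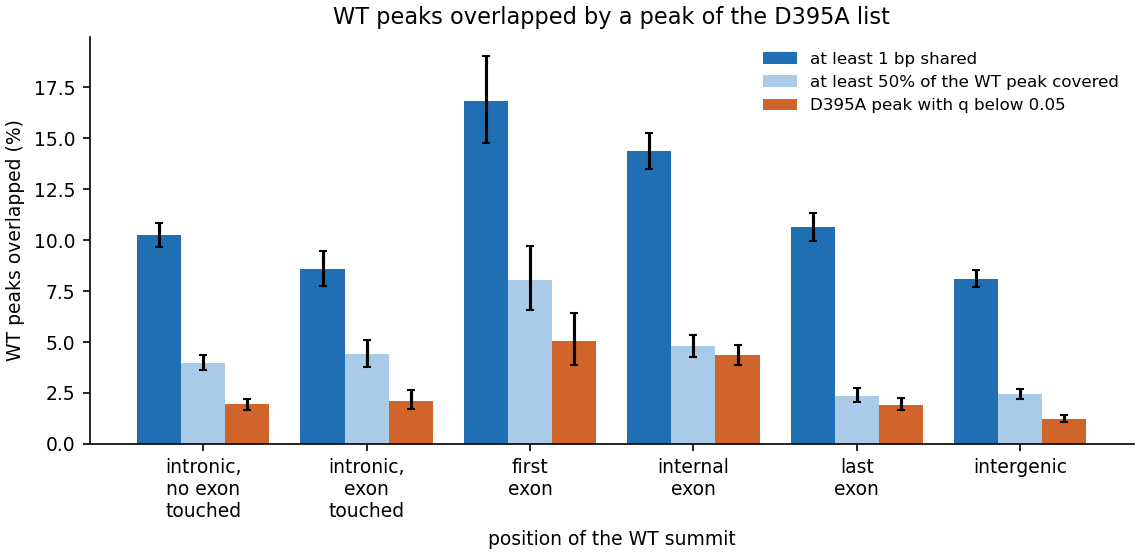
Percent of WT peaks overlapped by a peak of the D395A list, by the position of the WT summit, for 3 definitions of overlap, with 95% exact binomial intervals. Intronic peaks that touch no exon (10.3%) and those that touch one (8.58%) lie below first exons (16.8%) and internal exons (14.4%) at 1 shared base.

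Overlap was more frequent in stronger intronic peaks, and showed no such order in exons. It was 8.66% of intronic peaks up to 5-fold, 8.85% from 5 to 10, 13.9% from 10 to 20 and 19.2% (59 of 308) above 20-fold. Peaks in exons gave 11.98%, 13.3%, 11.6% and 12.1% over the same ranges. Stronger intronic peaks were also wider, with a median of 1396 bases above 20-fold against 378 up to 5-fold, and a wider peak can share a base more easily. In the 1418 overlapped peaks the median fold was 6.44 in the WT list and 2.89 in the D395A list, and the WT value was the higher in 1295 (91.3%). The whole lists, which were not called alike, differed in the same way, with median folds of 6.31 in WT and 2.66 in D395A.

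Most shared peaks were scattered over hosts: 1083 genes held at least 1. The hosts with the most were Chd1 (9), Gucy1a2 and Cadps2 (7 each), Gphn (5), Eda and Gpc6 (4 each). Cadps2, a factor of dense-core vesicle release, had 3.96 and 3.97 CPM in WT and 79.9 and 83.7 in D395A, held 19 intronic peaks in WT and 46 in D395A. Gpc6, a glypican, had 7.62 and 8.58 CPM against 38.1 and 42.7, with 15 and 73 peaks. In both, more RNA and more D395A peaks stood together. Eda rose 2.41-fold and had 19 and 27, a smaller gain in peaks than that between the whole lists. The D395A list held more intronic peaks in all, 26131 against 14473 in WT, of which 2951 had q below 0.05 in D395A. In others of the 6 more RNA stood beside fewer D395A peaks. Gucy1a2 rose 2.85-fold and had 29 intronic peaks in WT and 23 in D395A. Chd1 rose 1.29-fold and had 63 and 48, here with summits that other genes also cover. Gphn, whose RNA did not pass the test, had 22 and 16. The part of RNA level in the overlap was not tested. In the whole list, 3421 of the 5881 WT host genes (58.2%) also hosted a D395A intronic peak, which is 48.1% of the 7108 D395A hosts. The count table holds 52459 genes in all. Hosts were long (above), and the part of gene length and RNA level in this sharing was not tested.

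The highest D395A folds among shared peaks, in genes picked after their values were seen, were in Sept9, a septin (8.25 in D395A, 5.46 in WT), Map1b, a microtubule protein of neurons (7.27 and 6.29), and Vps8, an endosomal tethering factor (7.02 and 4.55). The Fhit peak of 28.5-fold in WT was 4.35-fold in D395A.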

How the data were processed

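Members, gene lists and comparisons were chosen with earlier results of these data known. Per the submitters' processing notes the authors used Trimmomatic 0.33.0, HISAT2 2.1.0, MACS2 2.1.1, featureCounts 1.6.3, edgeR 3.22.5 and other tools with mm10, with no roles given. For RNA-seq the authors deposited whole-number counts of reads for each gene beside the coordinates of its exons; the sources used here do not state whether counting used strand. One count column differs from the D395A label in 1 character and was taken as D395A replicate 1. The peak lists are in the narrowPeak layout: the authors deposited for each peak a fold enrichment, an integer score, and the -log10 of q. How the 2 WT immunoprecipitations were combined is not given, and 2 unlabelled columns of that list were not used. The 46 other samples were not analysed here.

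Exons of a gene were merged and introns numbered from its 5′ end. Host genes, introns and levels were read for summits covered by a single gene. Counts were compared in R 4.3.3 with edgeR 4.0.16 (filterByExpr, TMM, quasi-likelihood test, Benjamini-Hochberg over 17778 genes, threshold 0.05). CPM used the TMM-scaled library sizes. DESeq2 1.42.0, other scaling, filters, overlaps and intron definitions were alternatives. In simulated counts 87% of 100 genes changed 2-fold and 100% of 100 changed 4-fold were called (17509 genes tested), and all 1500 planted summits were classed as planted. Named were the 10 hosts with the most peaks, the 10 strongest peaks and up to 4 hosts of each list. The 6 largest rises, the 6 largest falls and the 6 hosts with the most overlapped peaks were named too. Rises and falls needed at least 10 CPM on average and no exon shared with the other strand. They also had to pass the test, with no overlap between the genotypes. A planned search for motifs at summits needed a genome and was not run. Figures were drawn with matplotlib 3.10.9.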

Additional observations from a re-analysis of the deposited data

How the results depend on the processing

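The share of WT peaks that were intronic moved with the definition: 21.6% when the whole peak had to miss every exon, 22.7% with the summit at least 200 bases from an exon, 29.5% for peaks with a -log10 q of at least 5 and 24.7% when only genes with at least 10 WT counts gave spans and exons. The share in first introns was 19.9% for peaks that touched no exon and 15.4% inside RefSeq spans, an alternative added after the data were seen, and stayed inside its interval with the best-expressed host or the stricter q. The share overlapped by a D395A peak was 4.104% at 50% of the WT peak, 4.09% with summits within 100 bases and 1.99% with D395A peaks of q below 0.05. The counts of hosts higher and lower in D395A stayed within 1.5 times except 1195 higher among hosts of peaks that touched no exon and 1163 lower when counts were fitted anew without genes that share exons with the other strand, both with fewer genes tested. In that refit 40.3% of 3341 hosts were higher and 34.8% lower, beside 34.6% and 34.3% of all its genes, whereas reading the same genes from the fit over all genes gave 37.8% and 37.6%. Leaving out 1 library gave 1624 to 1941 higher and 1556 to 1819 lower. With the replicate number as a block, 1862 hosts were higher and 1821 lower; same-numbered libraries share only a number (correlation of their deviations 0.034). With a library left out, the lone library of its genotype was assumed to have the spread of the other genotype. Of 67 named hosts tested, 12 crossed the threshold under some setting, and 0 reversed. Intronic peaks per library, and so the spread between replicates, could not be had from 1 list per genotype.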

Other observations

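Intronic peak density differed little between autosomes, from 11.8 per Mb of intron on chromosome 14 to 17.3 on chromosome 17, with 10.9 on X. On X the median fold was 6.78, against 5.76 over all intronic peaks.

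The summits with the most covering genes all lay in the clustered protocadherin genes, whose variable exons share downstream exons. In this cluster 7 summits were covered by more than 5 rows of the count table, up to 26, and folds ran from 3.03 to 20.3. Of the intronic summits, 930 (6.43%) also lay inside a RefSeq gene whose symbol is not in the count table, 566 of them in long non-coding RNA genes. Which of the genes at such a summit gave the RNA was not tested.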
